A study of Mus musculus with 12 samples.

Results

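The genes described here carry membrane vesicles through the cell and release them at synapses. They were chosen by symbol: Rab, Syt and Stx followed by a digit, Snap, Vamp, Syn1 to Syn3, Sv2, Vps, Snx, adaptor subunits of AP-1 to AP-3, Stxbp, Cplx, Unc13 and Rims. The rule takes 230 of 22028 protein-coding genes of the GENCODE M21 annotation. Of these, 74 could be named in the deposited counts and 70 passed the filter on low counts. Rab44, Syt16, Syt17 and Vps13d were named and did not pass it.

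RNA was sequenced from trigeminal ganglia, which hold the cell bodies of the sensory neurons of the face and cornea, in 12 libraries. All came from female C57BL/6J mice at 8 weeks of age. There were 3 libraries in each of 4 groups. The injury with stimulation group had a keratectomy, the removal of corneal epithelium and outer stroma over a circle 1.5 mm wide in a randomly chosen eye, followed by electrical stimulation through the skin near the eye. The injury group was taken 2 weeks after keratectomy without stimulation. The stimulation alone group had no wound, and the controls were untreated. Stimulation was a biphasic ramp of 300 µA at 20 Hz, given for 4 min on each of 14 days under isoflurane. Both injured groups also received ketamine, xylazine and the analgesic Ethiqa XR, so these exposures move with the groups. The submitters describe sham mice with electrodes and no current, and none of the 12 libraries is labelled so. The title speaks of diabetic neuropathy, and no label mentions diabetes. The labels do not say whether libraries of a group came from separate animals or from which side, and p-values therefore reflect only how far libraries of a group vary, which may be technical.

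Vesicle fusion is driven by SNARE proteins such as the syntaxins and VAMPs, which zip together between a vesicle and its target membrane. Proteins of the Stxbp (Munc18) and Unc13 (Munc13) families prepare the SNAREs, and synaptotagmins (Syt) sense calcium. Rab GTPases mark each compartment and recruit effectors and tethers. Adaptor complexes, sorting nexins (Snx) and the Vps tethering and retromer proteins choose cargo and return it between the surface, endosomes and Golgi. In sensory neurons this machinery supplies transmitter release at central endings and also carries receptors and channels to the terminals in the cornea.

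The deposited identifiers could not be used as gene names. The counts were made in GRCm39 gene intervals from reads that lie on GRCm38 positions, and the 229 members present under their own identifier had a median of 0.828 CPM there. CPM is the count scaled to 1e+06 counted reads, with TMM factors between libraries. Each gene was therefore named by the interval over exons of that GRCm38 gene and no other, with at least 100 exon bases. Under those names the 70 members had a median of 33.6 CPM. The reading is partial: a median of 459 exon bases per gene was counted, from 103 in Ap3b2 to 22746 in Unc13b. Only Rab2a, Unc13b, Stx17 and Vps50 were read over all their exons. In 12 members the counted bases held no coding sequence, among them Rab3c and Rab15. Another 91 members had no counted interval over their exons, 53 lay only in intervals shared with other genes and 12 were under the 100-base minimum. Of 34 core release genes, 10 were tested. Snap25, Syt1, Syn1, Unc13a and Rims1 had no interval, and Vamp2 and Rab3a only shared ones, so they are not analysed here. Counting ignored strand, so reads of an opposite gene cannot be told apart.

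Sequence of the counted coding exons is shown for 3 members that were higher and 3 that were lower in the comparisons below, because fold changes moved with the G and C content of these bases. Letters are from GENCODE M21 transcripts on GRCm38, 5′ to 3′ on the coding strand, with G and C in capitals. They are the longest coding exon under the interval at chr3:96190283-96190447 (plus strand, Sv2a), chr17:33961613-33961768 (plus, Vps52), chr7:81465663-81465765 (minus, Ap3b2), chr6:3600128-3600317 (plus, Vps50), chr12:54763620-54763725 (minus, Snx6) and chr12:35105107-35105300 (plus, Snx13).
Sv2a: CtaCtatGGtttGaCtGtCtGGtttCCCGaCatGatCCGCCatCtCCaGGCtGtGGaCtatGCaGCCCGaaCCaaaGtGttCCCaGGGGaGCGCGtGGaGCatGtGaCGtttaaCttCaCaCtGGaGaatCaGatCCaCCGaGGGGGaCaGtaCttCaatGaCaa
Vps52: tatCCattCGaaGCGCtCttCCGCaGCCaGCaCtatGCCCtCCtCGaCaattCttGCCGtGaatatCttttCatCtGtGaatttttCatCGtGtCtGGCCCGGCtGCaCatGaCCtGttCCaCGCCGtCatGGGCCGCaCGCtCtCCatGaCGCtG
Ap3b2: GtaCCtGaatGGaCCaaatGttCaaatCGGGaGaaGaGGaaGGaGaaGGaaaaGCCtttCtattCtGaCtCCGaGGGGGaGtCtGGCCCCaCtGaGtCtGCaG
Vps50: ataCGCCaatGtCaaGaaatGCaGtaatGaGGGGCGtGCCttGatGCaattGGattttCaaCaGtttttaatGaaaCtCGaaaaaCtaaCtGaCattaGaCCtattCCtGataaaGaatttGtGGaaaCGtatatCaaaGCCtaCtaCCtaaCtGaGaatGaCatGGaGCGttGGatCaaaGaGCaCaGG
Snx6: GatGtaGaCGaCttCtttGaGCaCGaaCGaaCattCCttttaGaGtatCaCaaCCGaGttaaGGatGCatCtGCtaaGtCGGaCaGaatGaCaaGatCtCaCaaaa
Snx13: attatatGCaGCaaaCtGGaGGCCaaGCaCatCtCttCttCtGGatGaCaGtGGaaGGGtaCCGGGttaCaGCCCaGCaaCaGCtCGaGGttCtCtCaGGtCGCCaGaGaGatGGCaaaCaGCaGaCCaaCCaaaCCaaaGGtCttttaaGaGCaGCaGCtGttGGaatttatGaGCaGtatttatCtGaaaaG
G and C made up 52.7% of the Sv2a stretch, 54.5% of the Vps52 stretch and 51.5% of the Ap3b2 stretch. They made up 38.9% of the Vps50 stretch, 41.5% of the Snx6 stretch and 47.4% of the Snx13 stretch.

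Depth was 7952798 to 10751547 counts per library. Libraries within a group correlated at 0.962 to 0.974 (log scale, across intervals) in the injury, stimulation alone and control groups, and at 0.935 to 0.962 in the injury with stimulation group, where replicate 2 stood apart. Mitochondrial transcripts held 16.5% to 17.3% of counts in injury with stimulation, 19.8% to 22.6% in injury, 10.4% to 14.6% in stimulation alone and 22.8% to 28.7% in controls, so this share moved with the groups. The tissue label was checked on 5 neuronal markers that could be named (Nefm, Thy1, Uchl1, Avil and Scn10a), none at 0. They summed to 5732 to 10465 CPM in injury with stimulation, 6497 to 8002 in injury, 7817 to 9428 in stimulation alone and 4229 to 4900 in controls. The members together held 0.607% to 0.645% of counts in injury with stimulation, 0.553% to 0.571% in injury, 0.675% to 0.712% in stimulation alone and 0.572% to 0.595% in controls. These are shares of all counts, mitochondrial ones included, so they also depend on the mitochondrial share and do not compare the members with other nuclear genes.

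Levels of the members spanned a wide range. Per kilobase of counted exon, Rab2a, a GTPase of traffic between the endoplasmic reticulum and Golgi, stood highest in controls at 801 CPM per kb, beside Snx6 at 793 and Rab6b at 784. Snx31 stood lowest at 0.614 CPM per kb. For 8 members (Vps45, Stxbp5l, Vps13c, Stxbp4, Snx10, Rab43, Snx31 and Syt14) the level was less than 2 times what reads outside any exon could give over the rest of the interval, taken at the 95th percentile of such intervals (0.504 CPM per kb). None of these 8 passed a test.

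**Figure D1:**
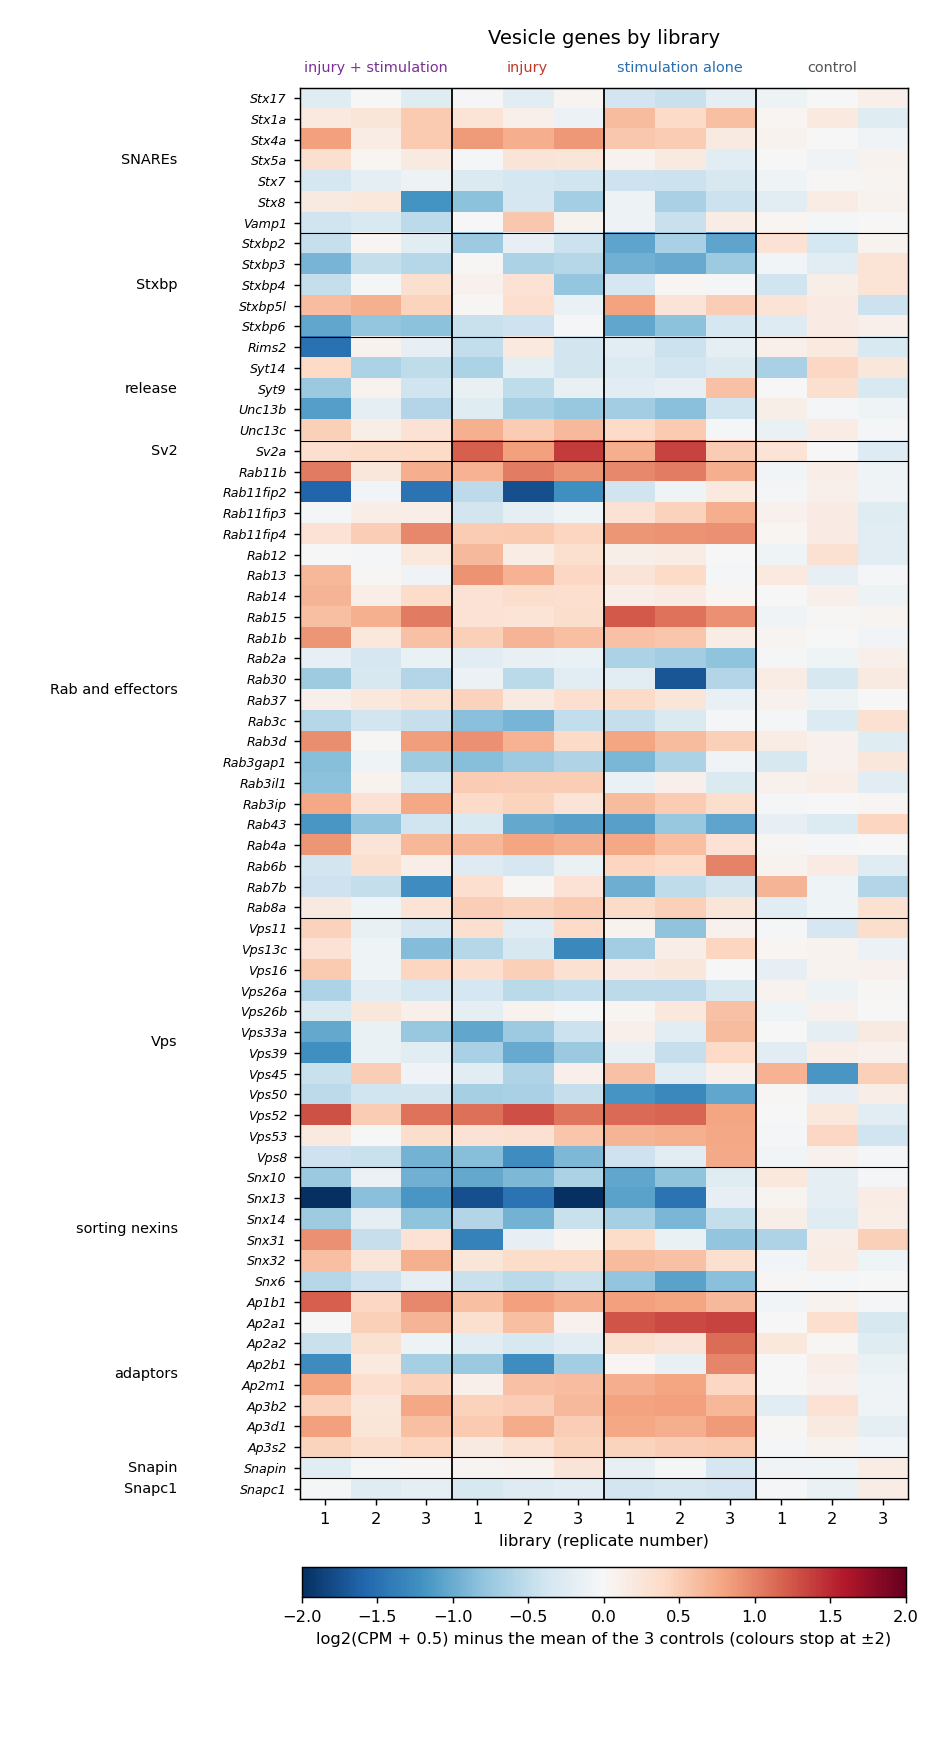
Colours give log2(CPM + 0.5) of 68 members (rows, by role) in each library (columns, by group) minus the mean of the 3 controls. Rab11b and Vps52 are red in the libraries of all 3 treated groups and Vps50 is blue, while injury with stimulation replicate 2 is paler than its 2 companions in many rows.

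After injury, against control, the synaptic vesicle gene Sv2a and the tether subunit Vps52 were among the members that rose most, each to more than 2 times the control level. Sorting nexin Snx13 fell most. Of the 70 members 28 were called at an adjusted p under 0.05 (edgeR's quasi-likelihood test, adjusted over all 13053 tested intervals), 16 higher and 12 lower. Among all tested intervals 31.0% were called, 19.3% higher and 11.7% lower. The median log2 fold change of the members was 0.03, and that of all tested intervals was 0.03. With DESeq2's size factors in place of TMM the split was 13 higher and 15 lower. The count fell to 16 without control replicate 1, 12 without control replicate 3, 11 without injury replicate 2 and 17 without injury replicate 3. Over all tested intervals these fits called 2735, 2683, 2465 and 3063, in that order, against 4046 with all 12 libraries. In bulk tissue, fewer cells of a type and less RNA per cell cannot be told apart. Neuronal markers summed to 6497 to 8002 CPM in injury and 4229 to 4900 CPM in controls, with 2 of 5 called higher, and their part in the result was not tested.

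Stx4a, at chr7:127824294-127849019 on the plus strand, encodes the syntaxin of general exocytosis. It had 208, 189 and 208 CPM after injury and 120, 115 and 108 CPM in controls (log2 fold change 0.82 ± 0.16 SE, edgeR adjusted p = 0.0024). The groups did not overlap, and the call held when any of the 12 libraries was left out.

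Sv2a, a transmembrane glycoprotein of synaptic vesicles at chr3:96181151-96195521 (plus strand), had 159, 121 and 182 CPM after injury and 83.5, 68.3 and 57.2 CPM in controls (1.14 ± 0.21, edgeR adjusted p = 0.0015). The lowest injury library was above the highest control. It was counted over 708 of its 4636 exon bases, and its call held when any of the 12 libraries was left out.

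Vps52, a subunit of the GARP and EARP complexes that tether endosome-derived vesicles, lies at chr17:33955812-33967035 (plus strand). It had 240, 274 and 234 CPM after injury and 113, 130 and 95.2 CPM in controls (1.15 ± 0.19, edgeR adjusted p = 0.00099). Vps50, which is found in EARP and not in GARP, went the other way, with 229, 231 and 264 CPM after injury and 369, 326 and 401 CPM in controls (−0.60 ± 0.13, adjusted p = 0.0042). The groups did not overlap for either gene. Vps50 lies at chr6:3498382-3603531 (plus strand) and is read over all its 10856 exon bases.

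Among the 22 Rab genes and their regulators, 7 rose and 3 fell, where 19.3% of all tested intervals were called higher and 11.7% lower. Rab11b, a GTPase of recycling endosomes, had 433, 544 and 497 CPM after injury and 259, 295 and 252 CPM in controls (0.87 ± 0.18, edgeR adjusted p = 0.0029). Rab4a, of rapid recycling from early endosomes, had 74.3, 81.0 and 76.5 CPM after injury and 47.4, 45.7 and 46.7 CPM in controls (0.73 ± 0.17, adjusted p = 0.0044). In both, all injury libraries were above all controls. Rab3d of regulated secretion (0.68), Rab13 (0.70), Rab1b of transport to the Golgi (0.59), Rab8a (0.49) and the Rab11 effector Rab11fip4 (0.49) also rose. Rab3c, a synaptic vesicle Rab, fell by 0.78 on the log2 scale, its regulator Rab3gap1 by 0.76 and the effector Rab11fip2 by 1.16. Each of these 8 calls was lost without at least 1 library: that of Rab3c without control replicate 3 or injury replicate 2, and the others without 5 to 11 of the 12 (adjusted p up to 0.17).

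Snx13, a sorting nexin with a domain that regulates G proteins, had 3.99, 4.99 and 3.19 CPM after injury and 15.3, 12.7 and 16.4 CPM in controls (−1.86 ± 0.37, edgeR adjusted p = 0.0024). The groups were far apart, at a level measured over 299 of 7866 exon bases. Snx6, which works with retromer, fell by 0.48 and Snx14 by 0.66, so that 3 of 6 sorting nexins fell and none rose, where 11.7% of all tested intervals were called lower. With the trend in G and C content and exon length removed, Snx13 stayed called (−1.58), and Snx6 (−0.21, adjusted p = 0.27) and Snx14 (−0.37, adjusted p = 0.11) did not. The Snx6 call was lost without control replicate 1 or injury replicate 2 (adjusted p up to 0.072), and that of Snx14 without these or control replicate 3 (up to 0.097). Of the other Vps genes, the HOPS subunit Vps39 fell by 0.81, the CORVET subunit Vps8 by 1.08 and the retromer subunit Vps26a by 0.47. Without 4 or 5 of the 12 libraries in turn these calls were lost too (adjusted p up to 0.12).

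The remaining calls after injury were smaller. Of 8 adaptor subunits, Ap1b1 of AP-1 rose by 0.72 and kept its call whichever library was left out, Ap3d1 (0.59) and Ap3b2 (0.53) of AP-3 rose, and Ap2b1 of AP-2 fell by 0.89. The call of Ap3d1 was lost without control replicate 3 or injury replicate 2 (adjusted p up to 0.057), those of Ap3b2 and Ap2b1 without 8 and 6 of the 12 libraries (up to 0.17), and so were those of the priming gene Unc13c (0.64) and the late endosomal syntaxin Stx7 (−0.35), without 7 and 6 (up to 0.12). Among core release genes that did not pass, Stx1a stood at 0.09 ± 0.19, Vamp1 at 0.23 ± 0.22, Rims2 at −0.21 ± 0.34, Unc13b at −0.54 ± 0.20 (adjusted p = 0.052) and the AP-2 subunit Ap2m1 at 0.45 ± 0.17 (log2 fold change, SE).

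Markers of several other cell types were also higher after injury, and those of satellite glia went both ways. The 5 named myelinating Schwann cell markers (Prx, Mag, Cnp, Mal and Fa2h) were all called higher and summed to 6709 to 8512 CPM in injury and 3184 to 4155 CPM in controls. Mag had 371, 236 and 366 CPM in injury and 106, 70.4 and 59.5 CPM in controls. The oligodendrocyte marker Mog had 149, 77.2 and 133 CPM in injury and 36.5, 25.3 and 24.2 CPM in controls. Myelin genes such as Mag cannot be told apart by cell of origin, here or in the comparisons below. Of the 3 satellite glia markers, Kcnj10 rose by 1.64 while Cdh19 (−1.12) and Ptprz1 (−0.48) fell, and they summed to 372 to 518 CPM in injury and 387 to 499.5 CPM in controls. Of the 7 fibroblast and meningeal markers 5 were called higher, and they summed to 27451 to 27799 CPM in injury and 9233 to 10081 CPM in controls. Most of that sum was Ptgds, with 21521 to 22254 CPM in injury and 5053 to 5523 CPM in controls, while Dcn (0.13) and Postn (−0.77) did not pass. The 3 oligodendrocyte markers (Mog, Cldn11 and Enpp6) summed to 309 to 550 CPM in injury and 99.1 to 160 CPM in controls, and the 4 macrophage markers to 185 to 219 CPM in injury and 113 to 132 CPM in controls. None of these markers was at 0. The part of these cell types in the values of Stx4a, Rab13 and the other members was not tested.

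**Figure D2:**
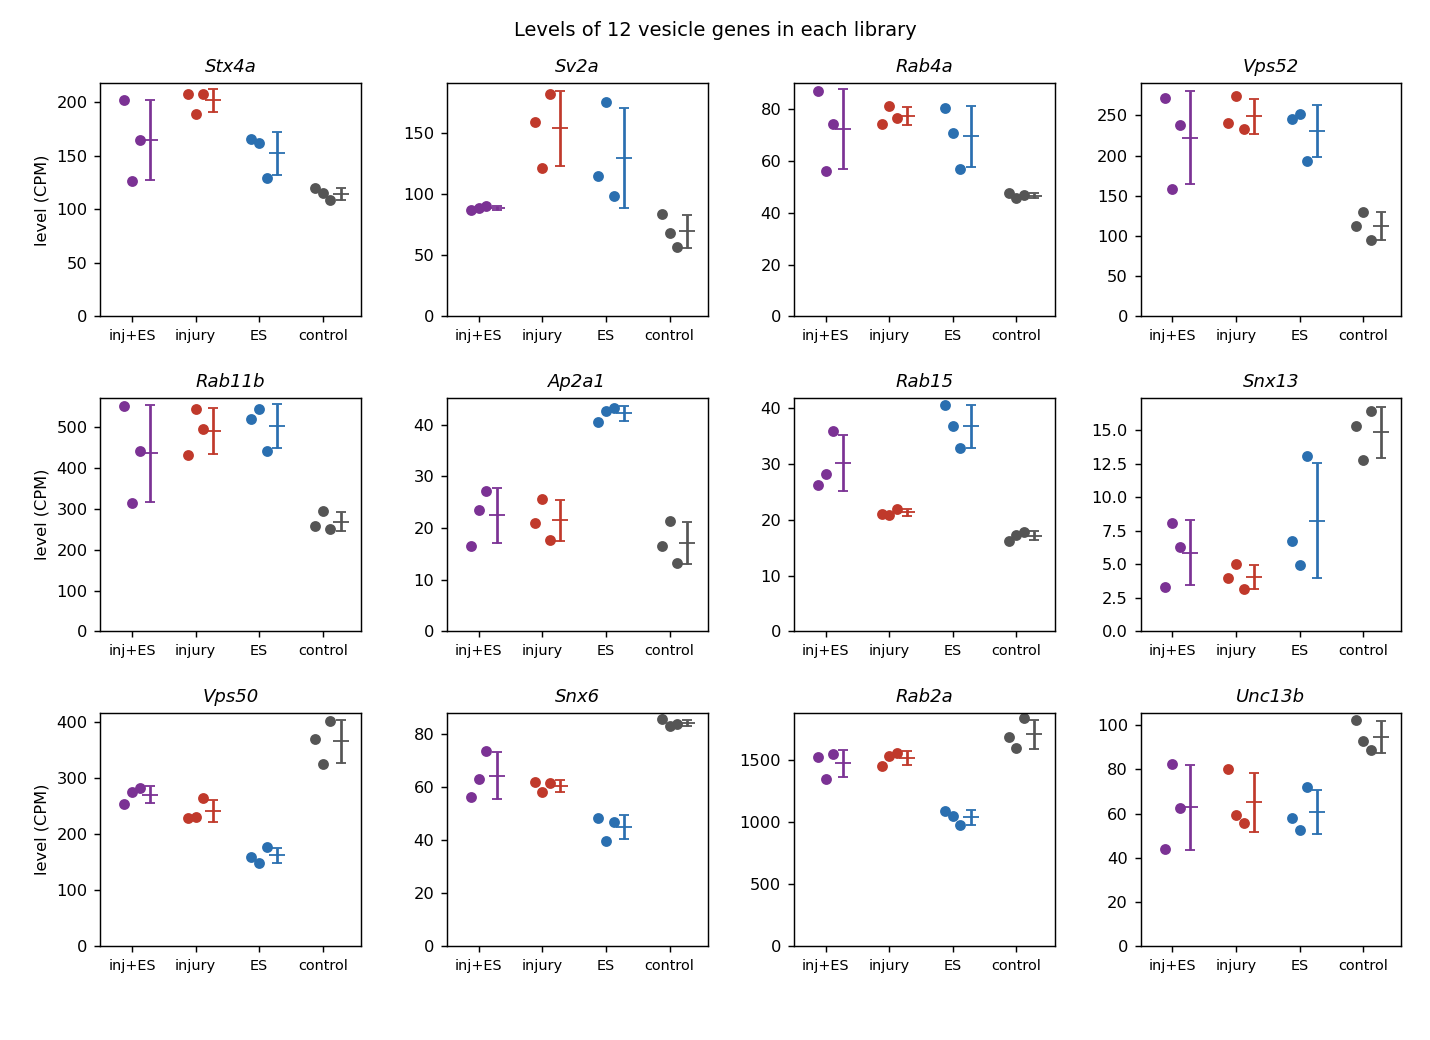
Points are TMM-scaled CPM of 12 members in each library for injury with stimulation (inj+ES), injury, stimulation alone (ES) and control, with the group mean and SD (n = 3) beside them. For Vps52 and Rab11b every treated library lies above every control, whereas Sv2a in injury with stimulation lies between 86.8 and 90.0 CPM, near the controls.

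With stimulation alone, against control, the AP-2 subunit Ap2a1, the GTPase Rab15 and the tether subunit Vps52 rose to more than 2 times the control level, and 7 of 8 adaptor subunits rose. Among members called lower, Vps50 fell most. The test called 31 of 70 members, 20 higher and 11 lower, where 29.8% of all tested intervals were called, 18.2% higher and 11.7% lower. The median log2 fold change was 0.11 over the members and 0.03 over all tested intervals. Leaving out control replicate 1 gave 20 calls, control replicate 3 gave 18, and stimulation alone replicate 1 or 2 gave 19. The same fits called 2881, 2668, 2675 and 2640 of all tested intervals, in that order, against 3896 with all 12 libraries. Neuronal markers summed to 7817 to 9428 CPM with stimulation alone and 4229 to 4900 CPM in controls, and all 5 were called higher. Schwann cell markers summed to 5004 to 5364 CPM with stimulation alone and 3184 to 4155 CPM in controls, with 4 of 5 called higher. Among satellite glia markers Kcnj10 rose (1.03), and Cdh19 (−1.60) and Ptprz1 (−0.58) fell. The fibroblast and meningeal markers Dcn (−1.77) and Postn (−1.93) and the macrophage markers Lyz2 (−0.88) and Ctss (−0.62) fell. The other 5 of 7 fibroblast and meningeal markers and the other 2 of 4 macrophage markers were not called. Fibroblast and meningeal markers summed to 4716 to 9212 CPM with stimulation alone and 9233 to 10081 CPM in controls. Oligodendrocyte markers summed to 101 to 194 CPM and 99.1 to 160 CPM, in that order, with 0 of 3 called. The part of these markers in the members' values was not tested. This comparison uses the same 3 controls as the one after injury, so shared changes are not independent of each other.

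Stx1a, a plasma membrane syntaxin of synaptic vesicle fusion measured over 318 exon bases, had 23.3, 19.5 and 22.8 CPM with stimulation alone and 15.3, 17.1 and 12.5 CPM in controls (0.55 ± 0.19 SE, edgeR adjusted p = 0.039). The groups did not overlap, and the Stx1a call was lost without 6 of the 12 libraries (adjusted p up to 0.17). With the trend in G and C content and exon length removed Stx1a stood at 0.19 (adjusted p = 0.54). Sv2a had 115, 175 and 98.2 CPM with stimulation alone and 83.5, 68.3 and 57.2 CPM in controls (0.89 ± 0.20, adjusted p = 0.0035). Without stimulation alone replicate 2, the highest of the group, the Sv2a call was lost at an adjusted p of 0.053. That library was also the highest of its group for the markers Ptgds (7112 CPM, against 2563 and 2685) and Kcnj10 (230, against 106 and 85.8). It was the lowest for Cdh19 (12.7, against 17.3 and 24.1) and Dcn (802, against 873 and 927). The part of these markers in the Sv2a value was not tested.

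Of the 8 adaptor subunits, which link cargo to vesicle coats, 7 rose and none fell. Among all tested intervals 18.2% were called higher and 11.7% lower. Ap2a1, an alpha subunit of the endocytic adaptor AP-2, had 40.6, 42.7 and 43.3 CPM with stimulation alone and 16.6, 21.3 and 13.2 CPM in controls (1.31 ± 0.21, edgeR adjusted p = 0.00036). The lowest stimulated library was at nearly 2 times the highest control, on 214 counted exon bases of which G and C made up 74.3%. The AP-3 subunits Ap3d1 (0.78), Ap3b2 (0.75) and Ap3s2 (0.49), Ap1b1 (0.76), Ap2m1 (0.65) and Ap2a2 (0.62) also rose, and Ap2b1 stood at 0.38 ± 0.32. Ap3b2, the neuronal beta subunit of AP-3, had 56.4, 57.1 and 50.9 CPM with stimulation alone and 27.3, 39.5 and 30.7 CPM in controls. The groups did not overlap for Ap3b2. Calls of Ap3s2 (without stimulation alone replicate 2, adjusted p = 0.057) and Ap2m1 (without replicate 1 or 2, up to 0.076) were lost, and that of Ap2a2 without 9 of the 12 libraries (up to 0.34). With the trend in G and C content and exon length removed, Ap1b1 (edgeR adjusted p = 0.17), Ap2m1 (0.17) and Ap2a2 (0.82) did not pass.

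Of the 22 Rab genes and regulators 7 rose and 1 fell, beside 18.2% higher and 11.7% lower among all tested intervals. Rab15, a GTPase of endosomal recycling, had 40.5, 36.7 and 32.8 CPM with stimulation alone and 16.2, 17.3 and 17.8 CPM in controls (1.1 ± 0.16, edgeR adjusted p = 0.00023). Rab11fip4 had 42.7, 43.2 and 43.6 CPM with stimulation alone and 23.6, 25.8 and 19.8 CPM in controls (0.90 ± 0.17, adjusted p = 0.0011). The groups stood clear of each other for both genes. Rab11b (0.90), Rab3d (0.63), Rab6b of Golgi traffic (0.62), Rab4a (0.57) and the Rab8 activator Rab3ip (0.50) rose. Rab11b kept its call whichever library was left out, and the other 4 lost it without 2 to 5 of the 12 (adjusted p up to 0.17). Rab2a, the most abundant member in CPM, had 1095, 1053 and 977 CPM with stimulation alone and 1688, 1602 and 1838 CPM in controls (−0.71 ± 0.14, adjusted p = 0.0013). All 3 stimulated libraries were below all controls.

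The tether subunits again moved in both directions. Vps50 had 160, 149 and 177 CPM with stimulation alone and 369, 326 and 401 CPM in controls (−1.17 ± 0.14, edgeR adjusted p = 5.6e-05). Vps52 had 246, 252 and 193 CPM with stimulation alone and 113, 130 and 95.2 CPM in controls (1.03 ± 0.19, adjusted p = 0.00078). Neither gene's groups overlapped. Vps53, another subunit shared by GARP and EARP, rose by 0.69, a call lost without control replicate 3 (adjusted p = 0.060). Vps26a fell by 0.46, lost without 4 of the 12 libraries (up to 0.091).

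Snx6 had 48.4, 39.7 and 46.8 CPM with stimulation alone and 85.5, 83.0 and 83.6 CPM in controls (−0.90 ± 0.14, edgeR adjusted p = 0.00027). The controls lay within 3 CPM of each other and far above the stimulated libraries, on 106 counted exon bases. Snx14 fell by 0.69 (lost without control replicate 1 or 3, adjusted p up to 0.062) and Snx32 rose by 0.52 (lost without 4 libraries, up to 0.13). Snx13 had 6.73, 4.96 and 13.1 CPM with stimulation alone and 15.3, 12.7 and 16.4 CPM in controls (−0.83 ± 0.35, adjusted p = 0.083), with replicate 3 inside the control range.

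Members that bind or prime SNAREs fell or did not pass with stimulation alone. Stxbp2 (−1.04), Stxbp3 (−0.95) and Stxbp6, or amisyn (−0.74), fell. Unc13b, or Munc13-2, which primes vesicles and was read over all its exons, had 58.1, 52.6 and 71.9 CPM with stimulation alone and 102, 92.8 and 88.5 CPM in controls (−0.63 ± 0.20, edgeR adjusted p = 0.025). The groups did not overlap, but with the trend in G and C content and exon length removed Unc13b stood at −0.13 (adjusted p = 0.64). The calls of Stxbp3 (without control replicate 3, adjusted p = 0.064), Stxbp2, Stxbp6, Unc13b and Stx7 (−0.39) were each lost without 1 to 5 libraries (up to 0.11). Snapc1, whose symbol fits the rule but which belongs to a complex that transcribes small nuclear RNAs, fell by 0.38, lost without 8 libraries. Snapin, a SNARE-binding protein of lysosome-related organelle biogenesis, stood at −0.18 and did not pass, although it was called lower with the trend in G and C content and exon length removed (−0.48, adjusted p = 0.035). Vamp1, a vesicle SNARE, stood at −0.11 ± 0.22 and Rims2, an active zone scaffold, at −0.31 ± 0.34.

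**Figure D3:**
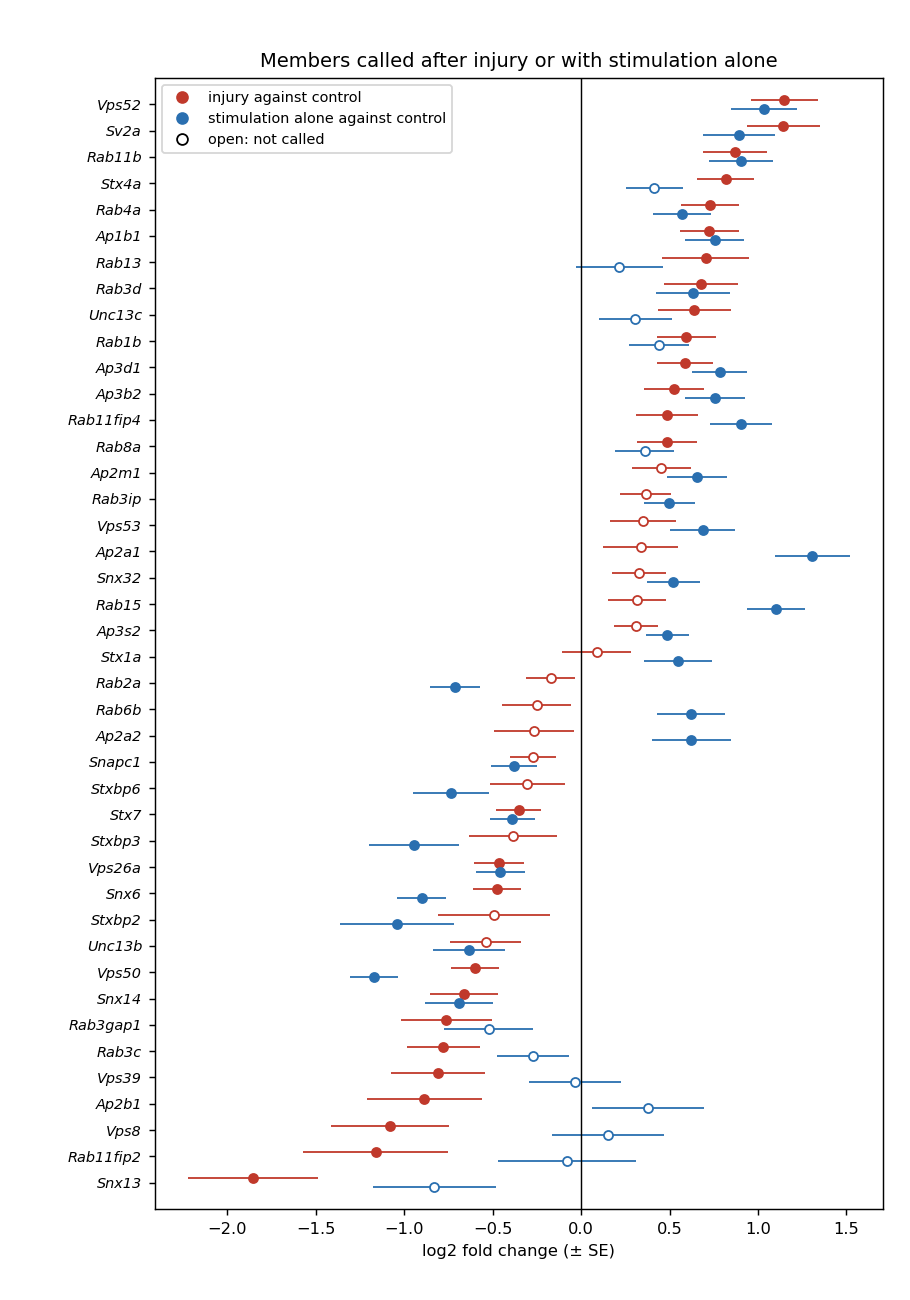
Points are log2 fold changes with SE for 42 members called after injury (red) or with stimulation alone (blue), each against the same 3 controls, and open points did not pass. Vps52 and Rab11b are filled on the right in both, Ap2a1 and Rab15 only in blue, and Stx4a and Snx13 only in red (whether a gene differed between injury and stimulation alone was not tested).

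Stimulation after injury, against injury, addressed whether stimulation changed the injured ganglion. No member passed edgeR's test, where 1.54% of all tested intervals were called, 0.0383% higher and 1.50% lower. At an unadjusted p under 0.05 there were 8 of the 70 members, 1 higher and 7 lower, beside 1597 of all 13053 tested intervals. DESeq2 called 2, both lower, of 368 calls over all intervals. Without the filter on low counts edgeR called 2, both lower, of 364 calls over all intervals. These were Rab3il1 and Sv2a under both. Leaving out injury replicate 2, injury with stimulation replicate 2 or stimulation alone replicate 2 gave 1 call each. These fits called 142, 243 and 189 of all tested intervals, in that order, against 201 with all 12 libraries. The median log2 fold change was 0.07 over the members and 0.00 over all tested intervals.

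Rab3il1, which activates Rab3 and Rab8, had 11.5, 21.9 and 16.2 CPM in injury with stimulation and 29.6, 29.5 and 29.4 CPM in injury (−0.83 ± 0.21, edgeR adjusted p = 0.061). All stimulated libraries were below all injury libraries. Sv2a had 86.8, 88.4 and 90.0 CPM in injury with stimulation and 159, 121 and 182 CPM in injury (−0.80 ± 0.20, adjusted p = 0.062). These groups did not overlap, and the stimulated libraries lay close together. Rab15, the 1 higher at an unadjusted p under 0.05, had 26.2, 28.2 and 35.8 CPM in injury with stimulation and 21.1, 20.8 and 21.9 CPM in injury (0.50 ± 0.16, adjusted p = 0.18). Schwann cell markers summed to 3412 to 6524 CPM in injury with stimulation and 6709 to 8512 CPM in injury, and fibroblast and meningeal markers to 8344 to 10078 CPM in injury with stimulation and 27451 to 27799 CPM in injury. Satellite glia markers summed to 304 to 386 CPM in injury with stimulation and 372 to 518 CPM in injury, with 0 of 3 called. All 3 oligodendrocyte markers were called lower (64.3 to 163 CPM in injury with stimulation, 309 to 550 CPM in injury). All 4 macrophage markers were too (94.6 to 110 CPM and 185 to 219 CPM, in that order). Of the 5 neuronal markers 0 were called (5732 to 10465 CPM and 6497 to 8002 CPM). The part of these markers in the values of Sv2a and Rab3il1 was not tested.

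Injury with stimulation, against control, gave 18 calls of 70, 15 higher and 3 lower, where 17.2% of all tested intervals were called, 12.3% higher and 4.93% lower. This count, like that over all tested intervals, rests on single libraries. It was 0 without injury with stimulation replicate 3, 7 without its replicate 1 and 33 without its replicate 2. It was 6 without control replicate 1 and 5 without control replicate 3. Over all tested intervals these fits called 11, 1007, 4349, 1034 and 974, in that order, against 2247 with all 12 libraries. A fit of these 2 groups alone gave 6. Neuronal markers summed to 5732 to 10465 CPM in injury with stimulation and 4229 to 4900 CPM in controls, with 4 of 5 called higher, and their part was not tested. Vps52 had 271, 158 and 238 CPM in injury with stimulation and 113, 130 and 95.2 CPM in controls (0.98 ± 0.19, edgeR adjusted p = 0.0048). Replicate 2 was the lowest of its group and still above all controls. Ap1b1 (0.89), Rab15 (0.82) and Rab3ip (0.63) rose, and of the 12 libraries left out in turn, these 4 calls were lost only without injury with stimulation replicate 3 (adjusted p 0.052 to 0.091).

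The 3 members that fell in this comparison were Snx13, Stxbp6 and Vps50. Snx13 had 3.30, 8.04 and 6.26 CPM in injury with stimulation and 15.3, 12.7 and 16.4 CPM in controls (−1.33 ± 0.36, edgeR adjusted p = 0.018). Stxbp6 had 11.4, 13.8 and 13.4 CPM in injury with stimulation and 19.8, 26.7 and 25.6 CPM in controls (−0.90 ± 0.22, adjusted p = 0.010). Vps50 had 253, 275 and 283 CPM in injury with stimulation and 369, 326 and 401 CPM in controls (−0.43 ± 0.13, adjusted p = 0.035), but with the trend in G and C content and exon length removed Vps50 stood at −0.0087 (adjusted p = 0.98). None of the 3 overlapped with controls, and each call was lost without 2 to 6 libraries (adjusted p up to 0.14). Sv2a, with 86.8, 88.4 and 90.0 CPM in injury with stimulation, stood at 0.34 ± 0.20 over controls and did not pass. Against the shared controls, 8 members were called higher in all 3 treated groups (among them Ap1b1, Ap3d1, Rab11b, Rab11fip4, Rab3d, Rab4a and Vps52) and 1 was called lower (Vps50). How many of all tested intervals were called in all 3 was not counted, so these counts do not set the members apart from other genes. With the trend in G and C content and exon length removed, Vps52 stayed called in all 3, the other 6 named lost the call in 1 or 2 of them, and Vps50 was called with stimulation alone and not in the other two.

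Whether stimulation gave another difference after injury than without it was tested as an interaction, the log2 fold change of injury with stimulation over injury minus that of stimulation alone over control. Of 70 members 16 were called, 4 positive and 12 negative, where 19.2% of all tested intervals were called, 6.86% positive and 12.3% negative. With DESeq2's size factors the split was 8 positive and 8 negative. Leaving out 1 library moved the count to 8 (control replicate 1), 9 (control replicate 3), 8 (injury replicate 2), 9 (injury replicate 3), 27 (injury with stimulation replicate 1), 9 (injury with stimulation replicate 3), 7 (stimulation alone replicate 1) or 5 (stimulation alone replicate 2). The count over all tested intervals, 2507 with all 12 libraries, moved to 1509, 1296, 1451, 1740, 3407, 1446, 1245 and 1126, in that order.

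The synaptic vesicle gene Sv2a had the lowest interaction of the 70 (−1.69 ± 0.29, edgeR adjusted p = 0.0020): its log2 fold change with stimulation was −0.80 after injury and 0.89 without it. Ap2a1 (−1.24), Vps52 (−1.20) and Rab11b (−1.07) were also negative. Among positive calls Vps50 stood highest at 1.34 ± 0.19 (adjusted p = 0.00088), with a log2 fold change of 0.16 after injury and −1.17 without it. Snx6 (0.99), Rab2a (0.68) and Stx7 (0.53) were also positive. Snx31 (1.53), Rab43 (1.38) and Snx13 (1.36) had larger values and did not pass (adjusted p 0.072 for Snx13). The calls of Sv2a, Vps50, Ap2a1, Vps52 and Snx6 held when any library was left out. That of Rab11b was lost without injury with stimulation replicate 3 or stimulation alone replicate 1 or 2 (up to 0.065), and those of Rab2a and Stx7 without 7 and 9 (up to 0.11). Cell type markers were called too. Negative were 3 of 3 oligodendrocyte, 3 of 5 Schwann cell, 1 of 5 neuronal and 1 of 4 macrophage markers. Fibroblast and meningeal markers (2 positive and 2 negative of 7) and satellite glia markers (1 and 1 of 3) went both ways. Their part in the members' values was not tested.

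**Figure D4:**
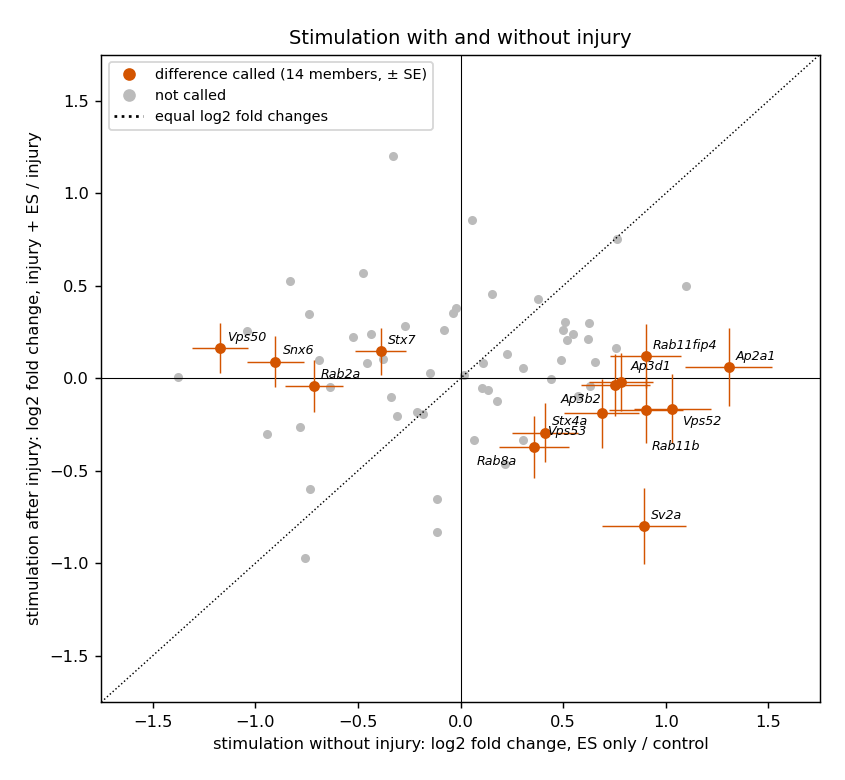
The x axis is the log2 fold change of stimulation alone over control and the y axis that of injury with stimulation over injury, for 68 members. The 14 members whose 2 values differed by the interaction test are orange with SE, and most of them lie far from 0 on the x axis and near 0 on the y axis, with Sv2a below 0 on the y axis.

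Fold changes of the members moved with the base composition of the counted exon bases. After injury the bases of members called higher had a median of 53.2% G and C and those of members called lower 42.9%. With stimulation alone the medians were 53.7% for members called higher and 43.9% for those called lower. Across the 70 members, which share their libraries, Spearman's rho of log2 fold change with G and C content was 0.34 after injury, 0.47 with stimulation alone and −0.47 for the interaction. Over 4767 named genes it was 0.28, 0.51 and −0.44 in the same order. Of the sequences printed above, which were picked by direction of change, those of Vps50 and Snx6 are rich in a and t. For Sv2a and Snx13 the printed stretch is only part of the counted bases, which held 49.9% and 43.8% G and C. Vps26a went against the trend, with 58.3% G and C and a lower call after injury and with stimulation alone.

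A second fit removed a smooth trend of counts with G and C content and exon length in each library, over the 4767 named genes. It called 17 members after injury, 11 higher and 6 lower, of which 14 were called before, where 25.4% of named genes were called. With stimulation alone it called 19, 13 higher and 6 lower, of which 15 were called before, where 16.8% were called. For the interaction it called 6 members where 6.10% were called, and for injury with stimulation against control 14 where 13% were called. After injury, Snx13, Rab4a, Stx4a, Rab11b, Sv2a and Vps52 were among those called in this fit and in every fit with a library left out. With stimulation alone these included Vps50, Snx6, Ap3b2, Ap3d1, Rab11fip4, Vps52, Rab15 and Ap2a1, and for the interaction Sv2a, Ap2a1 and Vps50.

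Calls lost in the second fit after injury were those of Ap1b1, Ap2b1, Ap3b2, Ap3d1, Rab11fip2, Rab11fip4, Rab13, Rab1b, Rab3gap1, Rab8a, Snx6, Snx14, Stx7 and Vps50 (adjusted p 0.055 to 0.95). With stimulation alone they were those of Ap1b1, Ap2a2, Ap2m1, Rab11b, Rab2a, Rab3d, Rab3ip, Rab4a, Rab6b, Snapc1, Snx14, Snx32, Stx1a, Stx7, Stxbp6 and Unc13b (adjusted p 0.054 to 0.82). Among the interactions lost were those of Vps52 (adjusted p = 0.14), Snx6 (0.065), Rab11b (0.20), Rab2a (0.21) and Stx7 (0.80). Members called in the second fit and not before were Rab12, Rab14 and Vps33a after injury, and Rab12, Rab14, Snapin and Unc13c with stimulation alone.

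The size of several changes shrank in the second fit. Vps50 with stimulation alone had a log2 fold change of −0.59 (adjusted p = 0.011), against −1.17 before, and after injury −0.26 (adjusted p = 0.18), against −0.60 before. Snx6 with stimulation alone stood at −0.49, against −0.90 before, and Rab15 at 0.58, against 1.1 before. Sv2a after injury stood at 1.12, against 1.14 before. Vps26a grew instead, to −0.89 with stimulation alone (edgeR adjusted p = 0.0014), against −0.46 before. After injury Vps26a stood at −0.77 (adjusted p = 0.0029), against −0.47 before. Rab2a with stimulation alone stood at −0.46 and no longer passed (edgeR adjusted p = 0.065). Of the adaptors that rose with stimulation alone, Ap2a1, Ap3d1, Ap3b2 and Ap3s2 passed again, while Ap1b1 (adjusted p = 0.17), Ap2m1 (0.17) and Ap2a2 (0.82) did not.

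**Figure D5:**
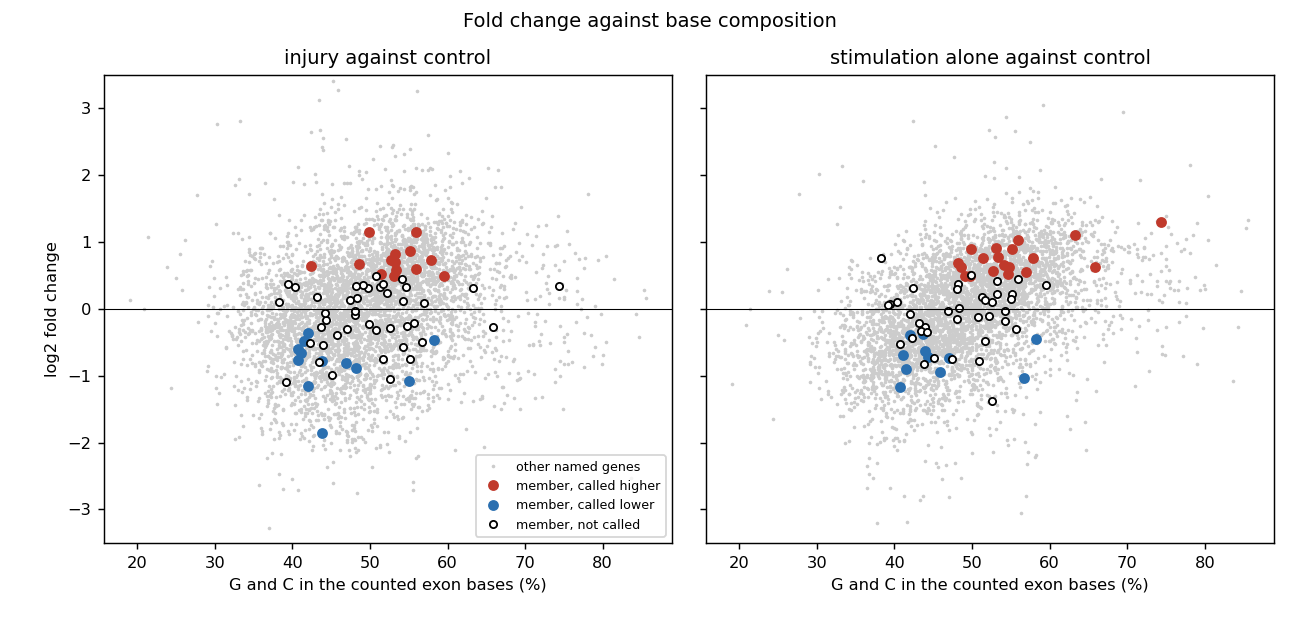
Each point is a named gene, with the percent of G and C in its counted exon bases on the x axis and its log2 fold change on the y axis, for injury against control (left) and stimulation alone against control (right). Members called higher (red) have a median of 53.2% and 53.7% G and C, and members called lower (blue) 42.9% and 43.9%.

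Promoters were looked at for letters that the members share and the choice by symbol did not use. RefSeq promoters on GRCm38.p6 were found for 55 of the 70 members. The 2 sets compared below were not chosen alike. For a member the promoter nearest the 5′ end of its gene was taken, and for all protein-coding genes the first listed. The members had also passed the filter on low counts, which was not applied to all genes. Their promoters had a median of 60.0% G and C, against 55.2%. The 250 bases before the promoter's start were read. That start lay 17514 bases from the GENCODE M21 gene start in Stx4a, 3673 in Ap2b1 and 790 in Rab3c. The GC box GGGCGG (or CCGCCC on the other strand) was present in 67.3% of these members, against 42.7% of 17492 protein-coding genes. The cyclic AMP response element TGACGTCA, whose letters read the same on both strands, was in 3 of 55 members (5.45%, against 2.01% of genes), and the TATA box TATAAA, on either strand, in 1.82%, against 12.4%. None of the 3 motifs contains another. Among members called after injury, a GC box was present in 7 of 12 that were higher and 7 of 11 that were lower, and in 23 of 32 that did not pass. The promoter of Sv2a, which was higher after injury (chr3:96180977-96181226, plus strand), and that of Snx6, which was lower (chr12:54795663-54795912, minus strand), are shown 5′ to 3′ on the gene's strand with GC boxes in capitals.
Sv2a: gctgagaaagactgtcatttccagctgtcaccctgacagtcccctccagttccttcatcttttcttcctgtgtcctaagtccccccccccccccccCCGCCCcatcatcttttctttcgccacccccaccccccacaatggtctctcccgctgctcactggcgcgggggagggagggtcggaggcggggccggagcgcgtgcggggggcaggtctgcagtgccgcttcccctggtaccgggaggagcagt
Snx6: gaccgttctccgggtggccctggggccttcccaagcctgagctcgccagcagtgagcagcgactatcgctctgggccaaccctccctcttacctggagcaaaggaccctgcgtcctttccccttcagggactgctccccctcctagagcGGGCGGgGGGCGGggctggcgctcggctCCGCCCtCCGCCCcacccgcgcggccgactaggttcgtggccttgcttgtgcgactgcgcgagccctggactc
Both hold a GC box, and a match is a description of the letters, not a site.

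Other vesicle genes outside the rule were read the same way, and 38 of 104 listed were tested. After injury 11 rose and 5 fell, with stimulation alone 14 rose and 8 fell, and after injury with stimulation 10 rose and 3 fell against control. Among all tested intervals 31.0%, 29.8% and 17.2% were called in these comparisons, in that order. The vesicular glutamate transporters, which load synaptic vesicles, were among the genes tested. Slc17a6 (VGLUT2) fell, at −1.80 ± 0.28 after injury (edgeR adjusted p = 0.00090) and −1.11 ± 0.27 with stimulation alone. Slc17a7 (VGLUT1) rose, at 0.60 ± 0.18 after injury and 1.44 ± 0.18 with stimulation alone. Slc17a8 (VGLUT3) stood at 0.82 ± 0.56 after injury and 0.25 ± 0.57 with stimulation alone and did not pass. The Rab3 effector Rph3a (0.93 and 1.27), the clathrin light chain Cltb (1.16 and 1.12) and the vesicle protein Syngr1 (0.92 and 1.08) rose after injury and with stimulation alone, in that order. The endocytic GTPase Dnm1 stood at 0.22 after injury and rose by 1.48 with stimulation alone. In injury with stimulation against injury, 2 of the 38 passed, where 1.54% of all tested intervals were called. The endophilin Sh3gl3 fell by 1.12 and the synaptophysin relative Sypl by 0.91.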

How the data were processed

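The data are bulk RNA-seq counts of mouse trigeminal ganglia. The deposited values are whole counts per gene interval, made by the authors with featureCounts 2.0.6 per the file headers, on paired input without strand, with a read allowed in several genes and reads rather than fragments counted. Libraries were poly(A) enriched, per the labels' protocols. Per the submitters' processing notes, FastQC, DESeq2 and Salmon 1.10.2 were used. Which aligner version and build placed the reads is not given in the sources used here. All 56941 identifiers were read, and 13053 intervals passed filterByExpr.

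Genes were named by GRCm38 position with GENCODE M21 as the report describes, which named 9969 genes, 4769 of them tested. Because only part of most genes was counted, a fold change describes the counted bases. Levels are TMM-scaled CPM with SD over 3 libraries. Tests were edgeR 4.0.16 quasi-likelihood tests (robust) in 1 fit of 12 libraries with group as the only term, with Benjamini-Hochberg adjustment over all tested intervals, and SE are those of the log2 fold change. The biological coefficient of variation was 0.235. Alternatives were DESeq2 1.42.0, its size factors in edgeR, no filter, only the groups compared, a replicate block, a trend with G and C content and exon length removed by splines with 5 degrees of freedom, a naming minimum of 200 bases, and each library left out. Named are up to 10 highest and 10 lowest called members per comparison, core release genes, and up to 4 of the smallest p per role. Members named outside this rule (Vps26a, Stx7, Rab8a and other calls, given to account for every called member) were chosen after their values were seen. Of the members tested, 2 are not reported here by name, though the counts include them. The members and lists were chosen with earlier results of these data known. The software was R 4.3.3 with limma 3.58.1, and Python 3.11.15 with matplotlib 3.10.9, numpy 2.4.6 and pandas 2.3.3.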

Additional observations from a re-analysis of the deposited data

Results flagged for a closer look

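For 14 of the members called, listed here, the log2 fold change with stimulation differed between injured and uninjured mice by edgeR's interaction test (injury with stimulation over injury, minus stimulation alone over control). The differences were −1.69 for Sv2a, −1.24 for Ap2a1, −1.20 for Vps52, −1.07 for Rab11b, −0.88 for Vps53, −0.80 for Ap3d1, −0.79 for Ap3b2, −0.78 for Rab11fip4, −0.73 for Rab8a and −0.71 for Stx4a. They were 0.53 for Stx7, 0.68 for Rab2a, 0.99 for Snx6 and 1.34 for Vps50. The test called 16 of 70 members and 19.2% of all tested intervals. After the trend with G and C content and exon length was removed, Sv2a, Ap2a1 and Vps50 were among those still called, at −1.55, −1.0 and 0.84. In that fit the calls of Vps53, Ap3d1, Ap3b2, Rab11fip4, Rab8a and Stx4a were lost (edgeR adjusted p 0.055 to 0.79). With 1 library left out in turn, each of these calls was also lost without 7 to 10 of the 12 (up to 0.22).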

How the results depend on the processing

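With the trend in G and C content and exon length removed, calls numbered 17 after injury, 19 with stimulation alone and 6 for the interaction; with a replicate block as well they were 17, 10 and 4, and 4 for injury with stimulation against control. Stx7 with stimulation alone reversed to 0.077 in the first and 0.078 in the second of these fits, against −0.39 without them, and the cause was not tested. Fitting only the groups compared gave 6 calls for injury with stimulation against control. For injury with stimulation against injury, no filter on low counts and DESeq2 gave 2 calls each. With 1 library left out in turn, calls ranged from 11 to 34 after injury, 0 to 1 for injury with stimulation against injury, 18 to 36 with stimulation alone, 0 to 33 for injury with stimulation against control and 5 to 27 for the interaction. Over all tested intervals they ranged from 2465 to 4847, 5 to 338, 2640 to 4593, 11 to 4349 and 1126 to 3407, in that order. Same-numbered libraries of different groups did not deviate together (correlations −0.26 to 0.20 in 18 pairs, 1 above 0.1). The own number was the best match in 4 of 18. Pairs with different numbers ranged from −0.39 to 0.44. Those ends were injury with stimulation replicates 1 and 2, in that order, each with stimulation alone replicate 3. The labels do not say what a number shares. The replicate block gave 23, 0, 28, 15 and 11 calls (injury, injury with stimulation against injury, stimulation alone, injury with stimulation against control, interaction). The other settings kept each count within 1.5 times. With 3 libraries a group and short counted stretches, low members such as Snx31 and Vps13c limit what could be called.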
